A study of Mus musculus with 24 samples.

Results

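Axonal transport moves organelles, vesicles and cytoskeletal protein along microtubules. Kinesins, with a motor domain in each heavy chain, mostly move cargo outward from the cell body, cytoplasmic dynein with its activator dynactin moves it back, and light and intermediate chains tie the motors to cargo. Retinal ganglion cells (RGCs) send the axons of the optic nerve and depend on this traffic, while dividing cells use another set of kinesins to build the spindle and cilia use a further set. The genes described here are the kinesin heavy chains whose symbols start with Kif and a digit, the kinesin light chains (Klc) and the dynein (Dync, Dynl) and dynactin (Dctn) subunits. Of the 69 genes of the reference annotation that meet this rule, 65 code for protein, and 57 of them were measured in the retina, 55 in both tables and Kif14 and Kif15 in the 5 week table alone. They are 57 of 16387 genes measured at either timepoint. Those protein coding genes that stand in neither table number 8, namely Dynlrb2, Kif12, Kif18b, Kif23, Kif28, Kif2b, Kif2c and Kif6. Kif1bp meets the rule by its symbol, but it codes for a protein that binds kinesins and is not a motor.

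The retinas came from adult male C57BL/6J mice in 4 groups of 6: bTBI mice, which were placed in a closed chamber and received a blast wave, at 1 week (8 days in the labels) and at 5 weeks after injury, and sham mice at the same timepoints. The bTBI mice were anaesthetised with ketamine and xylazine, sham mice were handled alike apart from the wave, and the retina is that of the eye facing it. Each value is a count of reads per gene set to an effective library size and expressed like CPM, called scaled count below, with a depth of between 14301989 and 25158638 reads per retina as inferred from the smallest step of the values. The labels call the cells retinal ganglion cells, but by the extraction protocol the RNA is that of the dissected retina, and Rbpms, a gene of RGCs, had 25.9 scaled counts on average in bTBI and 36.9 in sham retinas at 1 week. The 2 timepoints differ in the RNA kit and were scaled separately, so levels are compared within a timepoint, and kit and time cannot be told apart. Differences between bTBI and sham were tested with limma on log2(scaled count + 1) over all genes of a table, with Benjamini-Hochberg adjustment. A gene was called at an adjusted p under 0.005, and the weaker threshold of 0.05 is given beside it. All log2 fold changes are on that scale and set bTBI over sham, and a negative one is lower in bTBI.

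By role, 12 of the measured genes were grouped as motors and light chains of outward transport in neurons, a grouping by symbol that was not tested. They are called anterograde neuronal below, although Kif3a, Kif3b and Kif17 also work in cilia, and not all 12 need act mainly in axons. Another 11 are other kinesins and light chains, many of them found in most cells, 8 are mitotic kinesins and 5 are kinesins of cilia and hedgehog signalling. Of the rest 13 belong to cytoplasmic dynein 1 and the shared light chains, 2 to dynein 2, the motor of cilia, and 6 to dynactin. Kif5a, the neuron-specific heavy chain of kinesin-1, and the light chains Klc1 and Klc2 were lower in bTBI at both timepoints by the 0.05 threshold. Kif5a at 5 weeks was also called, while the 1 week values of Kif5a, Klc1 and Klc2 passed in only some of the alternatives. Kif5b, the heavy chain that most cells express, stood at nearly the same level in bTBI and sham retinas. Mitotic kinesins, dynein 2 and dynactin had no member past either threshold.

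Promoter sequences are shown for 4 members, Klc1, Kif3c and Dync1i1, which were lower in bTBI at 1 week, and Kif5c, the close relative of Kif5a. Each line holds the 250 bases before the start of the gene in RefSeq (GRCm38.p6, plus strand for all 4), at chr12:111758618-111758867 for Klc1, chr12:3364882-3365131 for Kif3c, chr6:5725389-5725638 for Dync1i1 and chr2:49619036-49619285 for Kif5c. Capitals mark matches, on either strand, to the GC box GGGCGG, the cAMP response element TGACGTCA and the TATA box TATAAA.
Klc1: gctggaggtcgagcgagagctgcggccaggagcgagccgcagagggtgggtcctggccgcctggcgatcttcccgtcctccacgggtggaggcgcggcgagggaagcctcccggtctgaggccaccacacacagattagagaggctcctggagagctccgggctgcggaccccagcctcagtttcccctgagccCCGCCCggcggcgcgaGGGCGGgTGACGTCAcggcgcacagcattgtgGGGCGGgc
Kif3c: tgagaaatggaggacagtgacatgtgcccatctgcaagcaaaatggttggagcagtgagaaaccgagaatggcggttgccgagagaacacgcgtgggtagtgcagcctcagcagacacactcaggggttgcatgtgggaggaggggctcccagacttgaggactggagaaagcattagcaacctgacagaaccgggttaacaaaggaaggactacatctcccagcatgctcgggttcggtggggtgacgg
Dync1i1: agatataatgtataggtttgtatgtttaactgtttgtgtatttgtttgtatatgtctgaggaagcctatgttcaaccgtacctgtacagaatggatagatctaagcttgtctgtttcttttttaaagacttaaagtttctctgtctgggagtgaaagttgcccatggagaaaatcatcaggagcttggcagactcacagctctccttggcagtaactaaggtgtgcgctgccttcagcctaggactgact
Kif5c: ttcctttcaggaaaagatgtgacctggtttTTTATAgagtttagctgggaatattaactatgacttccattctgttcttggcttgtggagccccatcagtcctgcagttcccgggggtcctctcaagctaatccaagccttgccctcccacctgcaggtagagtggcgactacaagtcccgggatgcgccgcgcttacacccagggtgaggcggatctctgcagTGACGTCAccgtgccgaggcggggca
The 4 windows share no motif of this search. Klc1 has 3 GC boxes and 1 cAMP response element in a window of 72.4% G and C, Kif5c has 1 cAMP response element and 1 TATA box, and the windows of Kif3c and Dync1i1 hold none of the 3. Among 32851 promoter windows of 250 bases, 32.7% hold the GC box, 1.55% the cAMP response element and 12.4% the TATA box, and of the 42 members with a window 28, 4 and 3 do, in that order. A match is a run of letters and not a site shown to be bound.

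Kif5a lies on the minus strand at chr10:127225696-127263348 (GRCm38). At 5 weeks its scaled counts were 192, 209, 228, 238, 214 and 210 in the 6 bTBI retinas, against 265, 267, 264, 283, 255 and 243 in the 6 sham retinas. Every bTBI retina lay below every sham retina, although the highest bTBI value and the lowest sham value were close. The mean was 215 ± 16.0 in bTBI and 263 ± 13.4 in sham (SD, n = 6 each), a log2 fold change of -0.29 with a standard error of 0.04 (limma adjusted p = 0.000437). It kept an adjusted p between 4.33e-05 and 0.00207 without each retina in turn, but the call was lost with a prior without the mean trend (adjusted p = 0.0162) and in a fit of all 24 retinas (adjusted p = 0.0236), in a range of 9.16e-05 to 0.0236 over the 8 alternatives. Kif5a was thus the 1 of 57 members called lower at 5 weeks, beside 0.823% of all genes tested, and at the 0.05 threshold 4 of 57 members were lower (7.02%), beside 1.93% of all genes.

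At 1 week Kif5a had 330, 383, 432, 364, 313 and 283 scaled counts in bTBI retinas, against 443, 446, 407, 399, 447 and 413 in sham retinas. The groups overlapped through bTBI replicate 3, and 5 of 6 bTBI retinas lay below all sham retinas. That retina also stood apart for Mbp, a myelin gene of oligodendrocytes, with 2531 scaled counts, against 35.7 to 139 in the other bTBI retinas and 38.3 to 42.0 in sham retinas. The log2 fold change was -0.29 with a standard error of 0.08, the same size as at 5 weeks but with a wider spread in bTBI (SD 53.5 in bTBI and 21.6 in sham), and it passed the 0.05 threshold alone (limma adjusted p = 0.0470). The lowest Kif5a values belong to bTBI replicates 5 and 6, in which the summed level of the 7 measured lens markers was 3698 and 7291, against at most 380 in the other 4 bTBI retinas and 696 in sham. Without replicates 5 and 6 the log2 fold change of Kif5a was -0.18 and the adjusted p 0.210, the highest of the 9 alternatives, whose lowest was 0.00537. Without bTBI replicate 3 it was -0.35 with an adjusted p of 0.00761. Kif5a at 1 week kept an adjusted p under 0.05 in 3 of 12 omissions of a single retina (0.00761 to 0.111) and in 4 of 9 alternatives, and with the replicate block it was 0.0511. The part of lens and myelin RNA in the result was not tested otherwise.

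Kif5b lies on chromosome 18 and is the form of most cells. Its scaled counts at 5 weeks were 134, 135, 145, 146, 128 and 139 in bTBI retinas, against 136, 133, 146, 135, 139 and 135 in sham retinas. At 1 week they were 176, 192, 210, 170, 162 and 159 in bTBI retinas, against 197, 183, 175, 175, 189 and 162 in sham retinas. The groups lay over each other at both timepoints, with log2 fold changes of -0.02 (95% interval -0.16 to 0.12) at 1 week and 0.00 (95% interval -0.07 to 0.08) at 5 weeks.

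Kif5c, the second neuron-enriched heavy chain, lay between the other two. At 1 week its scaled counts were 313, 371, 326, 344, 320 and 300 in bTBI retinas, against 390, 386, 367, 343, 388 and 351 in sham retinas. At 5 weeks they were 179, 197, 212, 217, 190 and 195 in bTBI retinas, against 207, 208, 229, 208, 207 and 203 in sham retinas. Of the 6 bTBI retinas 4 lay below all sham retinas at each timepoint, and the log2 fold changes of -0.17 at 1 week (limma adjusted p = 0.0775) and -0.09 at 5 weeks (limma adjusted p = 0.475) passed neither threshold.

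**Figure D1:**
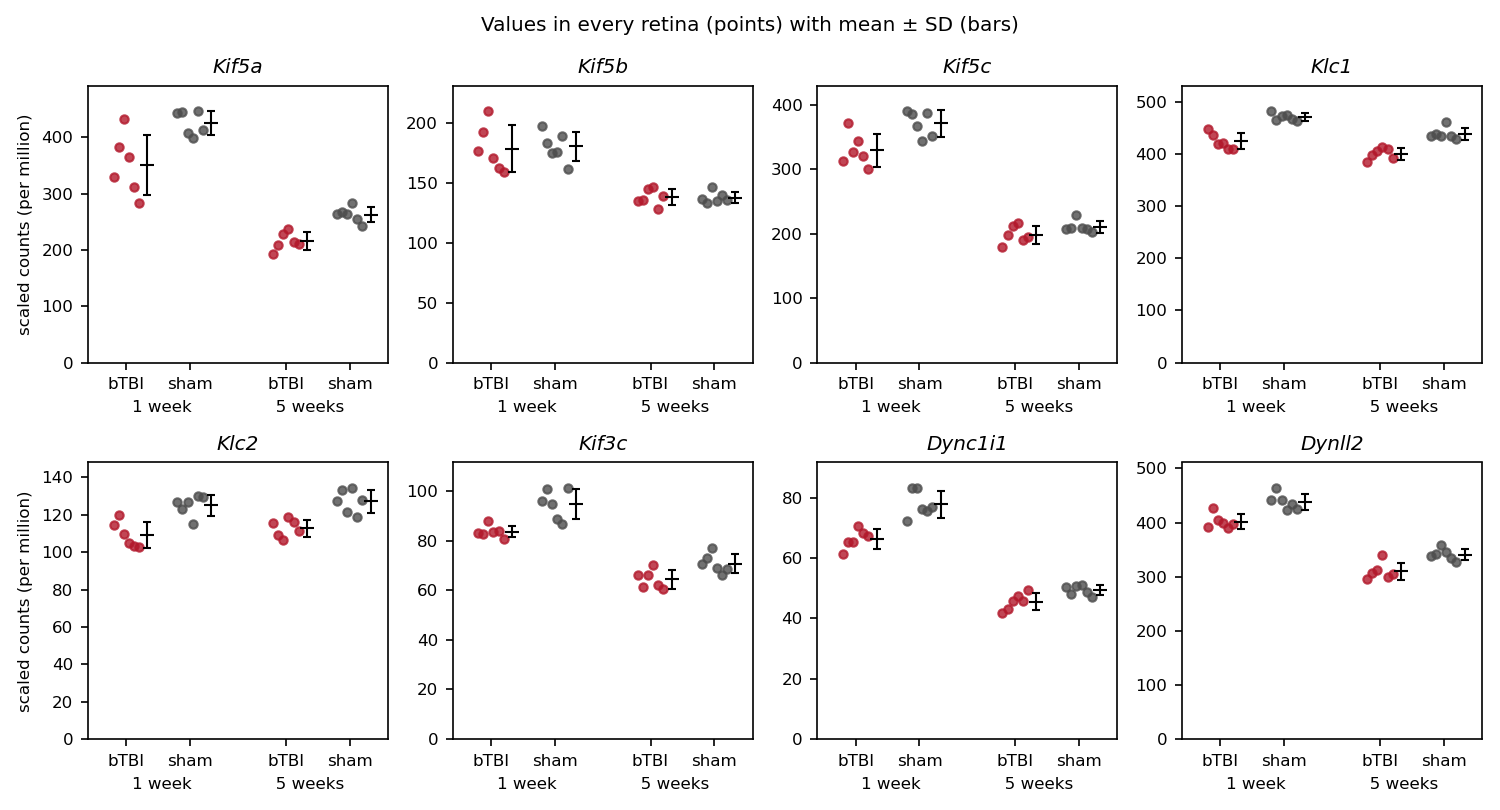
Scaled counts (CPM of the effective library size, linear axis from 0) of 8 members in every retina, with bTBI in red and sham in grey at 1 week and 5 weeks, and black bars for the mean ± SD of 6 retinas. Kif5a is lower in bTBI at both timepoints, at 5 weeks without overlap of the groups, while the points of Kif5b lie over each other.

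The relatives of a family were also set against each other inside the same retina, as the log2 ratio of their scaled counts. All 21 pairs within the Kif1, Kif3, Kif5, Kif13, Kif21, Kif26, Klc, Dync1i, Dync1li and Dynll families were taken at each timepoint, 42 pairs in all. A ratio within a retina does not remove differences in cell makeup between retinas, and the part of RGC number in the ratios was not tested. The comparison of pairs was chosen after the data were seen, and pairs that share a gene are not independent. Each was tested by exact two-sided permutation of the group labels, whose smallest p is 0.00216, with adjustment over the 42 pairs. Kif5a per Kif5b was 1.77 to 2.13 in bTBI retinas, with a median of 1.95, against 2.24 to 2.54 in sham retinas, with a median of 2.34, at 1 week. At 5 weeks it was 1.43 to 1.67 in bTBI retinas, with a median of 1.55, against 1.79 to 2.09 in sham retinas, with a median of 1.88. No bTBI retina reached the range of the sham retinas at either timepoint. With all retinas, the differences in log2 ratio were -0.27 at 1 week and -0.29 at 5 weeks (exact permutation adjusted p = 0.0101 at each timepoint). Without bTBI replicates 5 and 6 the difference at 1 week was -0.23 (exact permutation adjusted p = 0.0182). Leaving out retinas could not make these separate groups overlap, so the permutation p could only be the smallest possible and adds no support. The order held within the family at 5 weeks, where Kif5a per Kif5c was 1.06 to 1.13 in bTBI against 1.15 to 1.36 in sham retinas and Kif5b per Kif5c 0.676 to 0.753 in bTBI against 0.640 to 0.676 in sham retinas, apart by less than the last digit. At 1 week Kif5a per Kif5c did not pass, at 0.944 to 1.32 in bTBI against 1.11 to 1.17 in sham retinas (exact permutation adjusted p = 0.206). Kif5b per Kif5c passed at 1 week with overlap of the groups (exact permutation adjusted p = 0.0374).

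The light chains Klc1 and Klc2, which link kinesin-1 to its cargo in neurons, followed Kif5a with smaller differences. Klc1 (plus strand, chr12:111758849-111807844) had 409 to 448 scaled counts in bTBI retinas, with a median of 420, against 462 to 482 in sham retinas, with a median of 470, at 1 week. At 5 weeks it had 384 to 414 in bTBI retinas, with a median of 402, against 429 to 461 in sham retinas, with a median of 435. The groups did not overlap at either timepoint, and the log2 fold change was -0.15 at 1 week (limma adjusted p = 0.0234) and -0.13 at 5 weeks (limma adjusted p = 0.0123).

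Klc2 (minus strand, chr19:5107746-5118560) had 103 to 120 scaled counts in bTBI retinas, with a median of 107, against 115 to 130 in sham retinas, with a median of 127, at 1 week. At 5 weeks it had 107 to 119 in bTBI retinas, with a median of 113, against 119 to 134 in sham retinas, with a median of 128. The highest bTBI retina lay inside the sham range at 1 week, and the groups were apart at 5 weeks by a narrow margin, with log2 fold changes of -0.20 (limma adjusted p = 0.0228) and -0.17 (limma adjusted p = 0.0142). The 1 week value of Klc2 passed the 0.05 threshold in 7 of 12 omissions of a single retina and in 7 of 9 alternatives. Without bTBI replicates 5 and 6 its limma adjusted p was 0.149. The 5 week value passed in 10 of 12 omissions and 7 of 8 alternatives. The other measured light chains, Klc3 and Klc4, had log2 fold changes of -0.04 and 0.03 at 1 week and 0.04 and -0.02 at 5 weeks, none past a threshold. Within the same retinas Klc2 per Klc4 was 1.12 to 1.42 in bTBI against 1.34 to 1.58 in sham at 1 week (exact permutation adjusted p = 0.0303, over 0.05 without any 1 of sham replicates 1, 3, 5 and 6) and 1.14 to 1.25 in bTBI against 1.28 to 1.40 in sham at 5 weeks (exact permutation adjusted p = 0.0101). Klc2 per Klc3 and Klc1 per Klc3 did not pass at 1 week (exact permutation adjusted p = 0.193 and 0.263), while both passed at 5 weeks (0.0101 each). Klc1 per Klc4 passed at 1 week (exact permutation adjusted p = 0.0404), but in only 3 of 12 omissions of a single retina.

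Among the heterotrimeric kinesin-2 genes, Kif3c, a neuron-enriched subunit, was lower by the 0.05 threshold at 1 week, and Kif3a and Kif3b passed no threshold. Kif3c (plus strand, chr12:3365132-3406494) had 80.7 to 87.8 scaled counts in bTBI retinas, with a median of 83.4, against 86.7 to 101 in sham retinas, with a median of 95.4, at 1 week. Only the highest bTBI retina reached the sham range, and the log2 fold change was -0.18 (limma adjusted p = 0.0343). The 1 week value of Kif3c passed the 0.05 threshold in 3 of 12 omissions of a single retina and in 6 of 9 alternatives. Without bTBI replicates 5 and 6 its limma adjusted p was 0.145. At 5 weeks the log2 fold change was -0.13 (limma adjusted p = 0.180), with 60.4 to 70.3 scaled counts in bTBI and 66.3 to 76.9 in sham retinas. Kif3b, the main partner of Kif3a in cilia and axons, had log2 fold changes of 0.06 at 1 week and 0.02 at 5 weeks, and Kif3a -0.09 and -0.05. Kif3a per Kif3c did not pass at either timepoint (log2 difference 0.09 and 0.08, exact permutation adjusted p = 0.104 and 0.266), while Kif3a per Kif3b passed at 1 week (log2 difference -0.15, exact permutation adjusted p = 0.0374, under 0.05 in 4 of 12 omissions of a single retina). Kif3b per Kif3c was higher in bTBI, at 1.29 to 1.38 against 1.07 to 1.22 in sham retinas at 1 week (exact permutation adjusted p = 0.0101) and at 1.84 to 2.16 against 1.66 to 1.90 in sham retinas at 5 weeks (exact permutation adjusted p = 0.0165).

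The kinesin-3 genes Kif1a and Kif1b, which carry synaptic vesicle precursors and mitochondria, were the most abundant members by read number. Kif1a had 810 to 1010 scaled counts in bTBI and 890 to 1127 in sham retinas at 1 week, with a log2 fold change of -0.14 (limma adjusted p = 0.283), and -0.04 at 5 weeks. Kif1b had 1201 to 1526 scaled counts in bTBI and 1151 to 1433 in sham retinas at 1 week, with log2 fold changes of 0.06 at 1 week and 0.10 at 5 weeks (limma adjusted p = 0.745 and 0.246). Neither gene passed a threshold on its own. Inside a retina, Kif1a per Kif1b was 0.654 to 0.703 in bTBI against 0.745 to 0.806 in sham at 1 week, with no overlap (exact permutation adjusted p = 0.0101), and 0.567 to 0.616 in bTBI against 0.599 to 0.694 in sham at 5 weeks (exact permutation adjusted p = 0.0210). Kif1a per Kif1c did not pass (log2 difference -0.33 at 1 week and -0.03 at 5 weeks, exact permutation adjusted p = 0.125 and 0.536). In all, 18 of the 42 pairs passed an adjusted p of 0.05, 8 at 1 week and 10 at 5 weeks, and 9 had no overlap of the groups. Many of these pairs share a gene, as those of Klc1 and Klc2 with Klc3 and Klc4 do. The share over pairs of other genes is not known, so the counts cannot be set against a background.

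**Figure D2:**
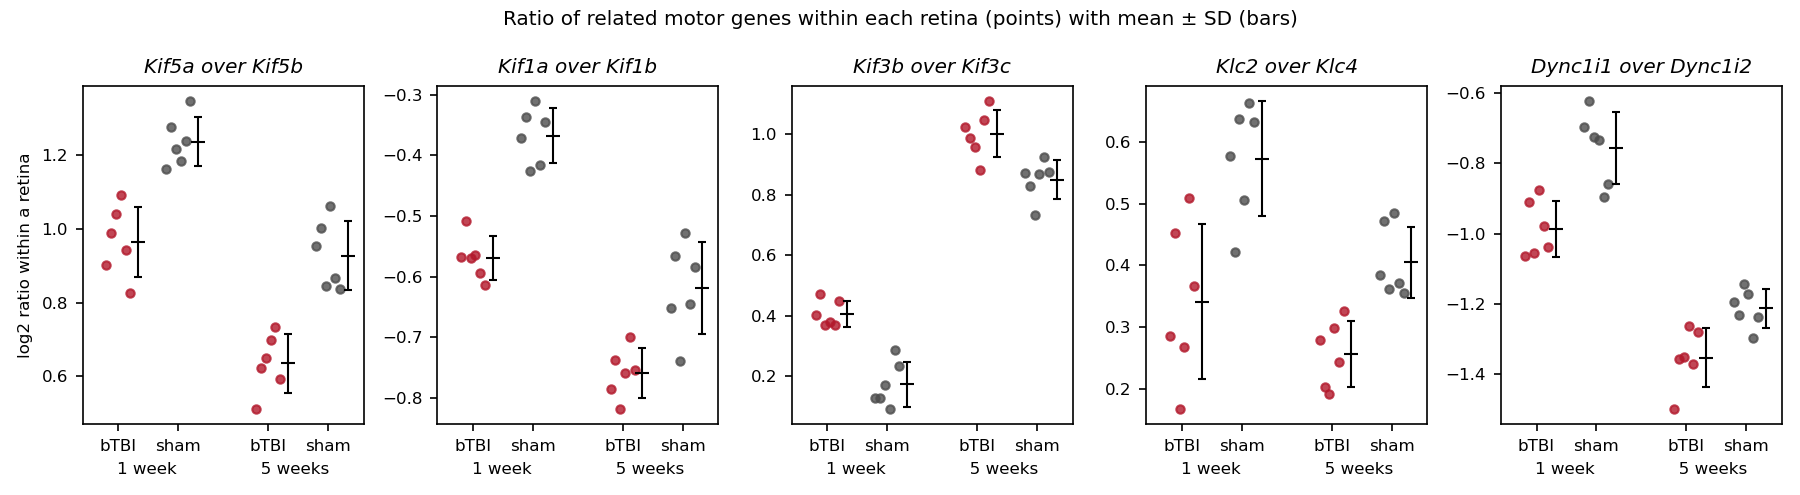
Log2 ratio of 2 related genes within each retina for 5 pairs, with bTBI in red and sham in grey at 1 week and 5 weeks, and black bars for the mean ± SD of 6 retinas. Kif5a over Kif5b is lower in every bTBI retina than in any sham retina at both timepoints, and Kif3b over Kif3c, with the neuron-enriched gene below, is higher in bTBI.

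Of the dynein 1 genes, Dync1i1, the intermediate chain found mainly in neurons, had the smallest p of all members at 1 week. Dync1i1 (plus strand, chr6:5725639-6028039) had 61.3 to 70.5 scaled counts in bTBI retinas, with a median of 66.3, against 72.3 to 83.3 in sham retinas, with a median of 76.5. The groups did not overlap, and the log2 fold change was -0.23 (limma adjusted p = 0.00952). At 5 weeks it had 41.7 to 49.3 scaled counts in bTBI and 47.2 to 51.1 in sham retinas, with a log2 fold change of -0.12 (limma adjusted p = 0.283). Dync1i2, the intermediate chain of most cells, stood at 0.00 and 0.03. Dync1i1 per Dync1i2 was 0.479 to 0.545 in bTBI against 0.537 to 0.649 in sham at 1 week (exact permutation adjusted p = 0.0165) and 0.354 to 0.416 in bTBI against 0.407 to 0.453 in sham at 5 weeks (exact permutation adjusted p = 0.0210).

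The light chain Dynll2, which also serves myosin V, had the highest sham level per kilobase of exon of all members at both timepoints, with 160 scaled counts per kb at 1 week and 125 at 5 weeks. It had 295 to 341 scaled counts in bTBI retinas, with a median of 306, against 327 to 358 in sham retinas, with a median of 340, at 5 weeks, and 5 of 6 bTBI retinas lay below all sham retinas. The log2 fold change was -0.14 at 5 weeks (limma adjusted p = 0.0333) and -0.13 at 1 week (limma adjusted p = 0.0753). The 5 week value passed the 0.05 threshold in 3 of 12 omissions of a single retina (adjusted p 0.00208 to 0.0903), and with a prior without the mean trend its adjusted p was 0.165, the highest of the 8 alternatives, whose lowest was 0.0211. The motor subunit itself, Dync1h1, had 311 to 538 scaled counts in bTBI and 289 to 618 in sham retinas at 1 week, a range too wide to resolve a small difference (log2 fold change 0.05, 95% interval -0.30 to 0.39), and 405 to 499 in bTBI and 432 to 482 in sham retinas at 5 weeks (-0.01, 95% interval -0.09 to 0.08). The light intermediate chains Dync1li1 and Dync1li2 had log2 fold changes between -0.05 and 0.08. Dynlt1a, Dynlt1b, Dynlt1c and Dynlt1f are near-identical copies on chromosome 17 between which reads can be split, and their group means of 1.23 to 8.58 scaled counts are uncertain for that reason.

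Dynactin, the activator of dynein, was close to level. Dctn1, the p150Glued subunit that holds the microtubule, had 478 to 538 scaled counts in bTBI and 430 to 578 in sham retinas at 1 week (log2 fold change 0.03), and 510 to 548 in bTBI and 511 to 587 in sham retinas at 5 weeks (-0.06, limma adjusted p = 0.528). Dctn2 had the smallest p of the 6 at 1 week, with a log2 fold change of -0.09 (limma adjusted p = 0.280) and -0.01 at 5 weeks. All 6 dynactin members had a negative log2 fold change at 5 weeks, between -0.06 and -0.01, and 0 of 6 passed a threshold, with 0 at an unadjusted p under 0.05. Dynein 2 also passed none, and its heavy chain Dync2h1 had a log2 fold change of 0.10 at 5 weeks (limma adjusted p = 0.353).

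Most mitotic kinesins had low values, as did the measured markers of cell division. The 6 measured at 1 week had sham means of 1.04 to 5.22 scaled counts and log2 fold changes of -0.21 to 0.19, and the 8 at 5 weeks had sham means of 1.42 to 21.7 and log2 fold changes of -0.07 to 0.13. With limma 0 of them passed an unadjusted p of 0.05 at either timepoint. Kif4, a chromosome-associated kinesin, had the highest sham mean of them at 5 weeks, with 21.3 ± 2.49 scaled counts in bTBI and 21.7 ± 2.45 in sham retinas (SD, n = 6 each). Kif20a, a kinesin of cytokinesis, had 1.33 ± 0.33 in bTBI and 1.04 ± 0.25 in sham retinas at 1 week (limma adjusted p = 0.461). Of 9 proliferation markers 2 stood in the 1 week table and 3 in the 5 week table, 0 of them past a threshold. The 95% interval of Kif4 ran from -0.52 to 0.11 at 1 week, wide enough to hold a change of the size seen for Kif5a, and from -0.19 to 0.14 at 5 weeks, where the lowest bound of the 8 mitotic kinesins was -0.26 (Kif11). For members with few scaled counts, such as Kif11 (sham mean 1.42 at 5 weeks), the added count of 1 shrinks the log2 fold change. Their bounds therefore cannot be set against the change of Kif5a.

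The remaining kinesins showed no call either. Among them Kif1c, a kinesin-3 found in many tissues, had the smallest p at 1 week, with 95.8 to 134 scaled counts in bTBI and 83.9 to 114 in sham retinas (log2 fold change 0.19, limma adjusted p = 0.296), and -0.01 at 5 weeks. The log2 fold changes of Kif13b were 0.18 at 1 week (limma adjusted p = 0.445) and 0.00 at 5 weeks, and Kif26a and Kif26b, which have lost motor activity, -0.13 each at 5 weeks (limma adjusted p = 0.665 and 0.636). The hedgehog and cilia kinesins Kif7, Kif9, Kif19a, Kif24 and Kif27 had sham means of at most 7.94 scaled counts and log2 fold changes between -0.07 and 0.09.

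Counted over the list, 5 of 55 members were lower at the 0.05 threshold at 1 week (9.09%, beside 3.06% of all genes), namely Dync1i1, Klc2, Klc1, Kif3c and Kif5a, and 0 were higher, beside 3.02% of all genes. The 5 depended on single retinas, with Dync1i1 alone left without bTBI replicate 5, bTBI replicate 6 or sham replicate 3, and 7 genes without bTBI replicate 2. At the threshold of 0.005 limma called 0 lower, beside 0.985%, and 0 higher, beside 1.27%, with 10 members at an unadjusted p under 0.05, all 10 of them lower, beside 8.93% of all genes lower and 8.32% higher. At 5 weeks 0 members were called higher, beside 0.0126% of all genes, and 0 at the 0.05 threshold, beside 0.113%, with 8 members at an unadjusted p under 0.05, of which 6 had a negative log2 fold change and Kif1b and Dync2h1 a positive one, beside 6.95% of all genes lower and 3.97% higher. The 6 bTBI and 6 sham retinas did not overlap for 3 members at 1 week (Dync1i1, Klc1 and Kif21a), all lower, beside 2.25% of all genes lower and 1.59% higher, and for 3 members at 5 weeks (Kif5a, Klc1 and Klc2), all lower, beside 1.75% lower and 0.239% higher. The median log2 fold change of the anterograde neuronal genes was -0.15 at 1 week and -0.04 at 5 weeks, with 4 of 12 and 3 of 12 lower at the 0.05 threshold. The medians of the other 43 members at 1 week and 45 at 5 weeks were -0.01 and -0.02, with 1 lower at each timepoint, Dync1i1 and Dynll2, beside medians of 0.00 over all genes at both timepoints.

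**Figure D3:**
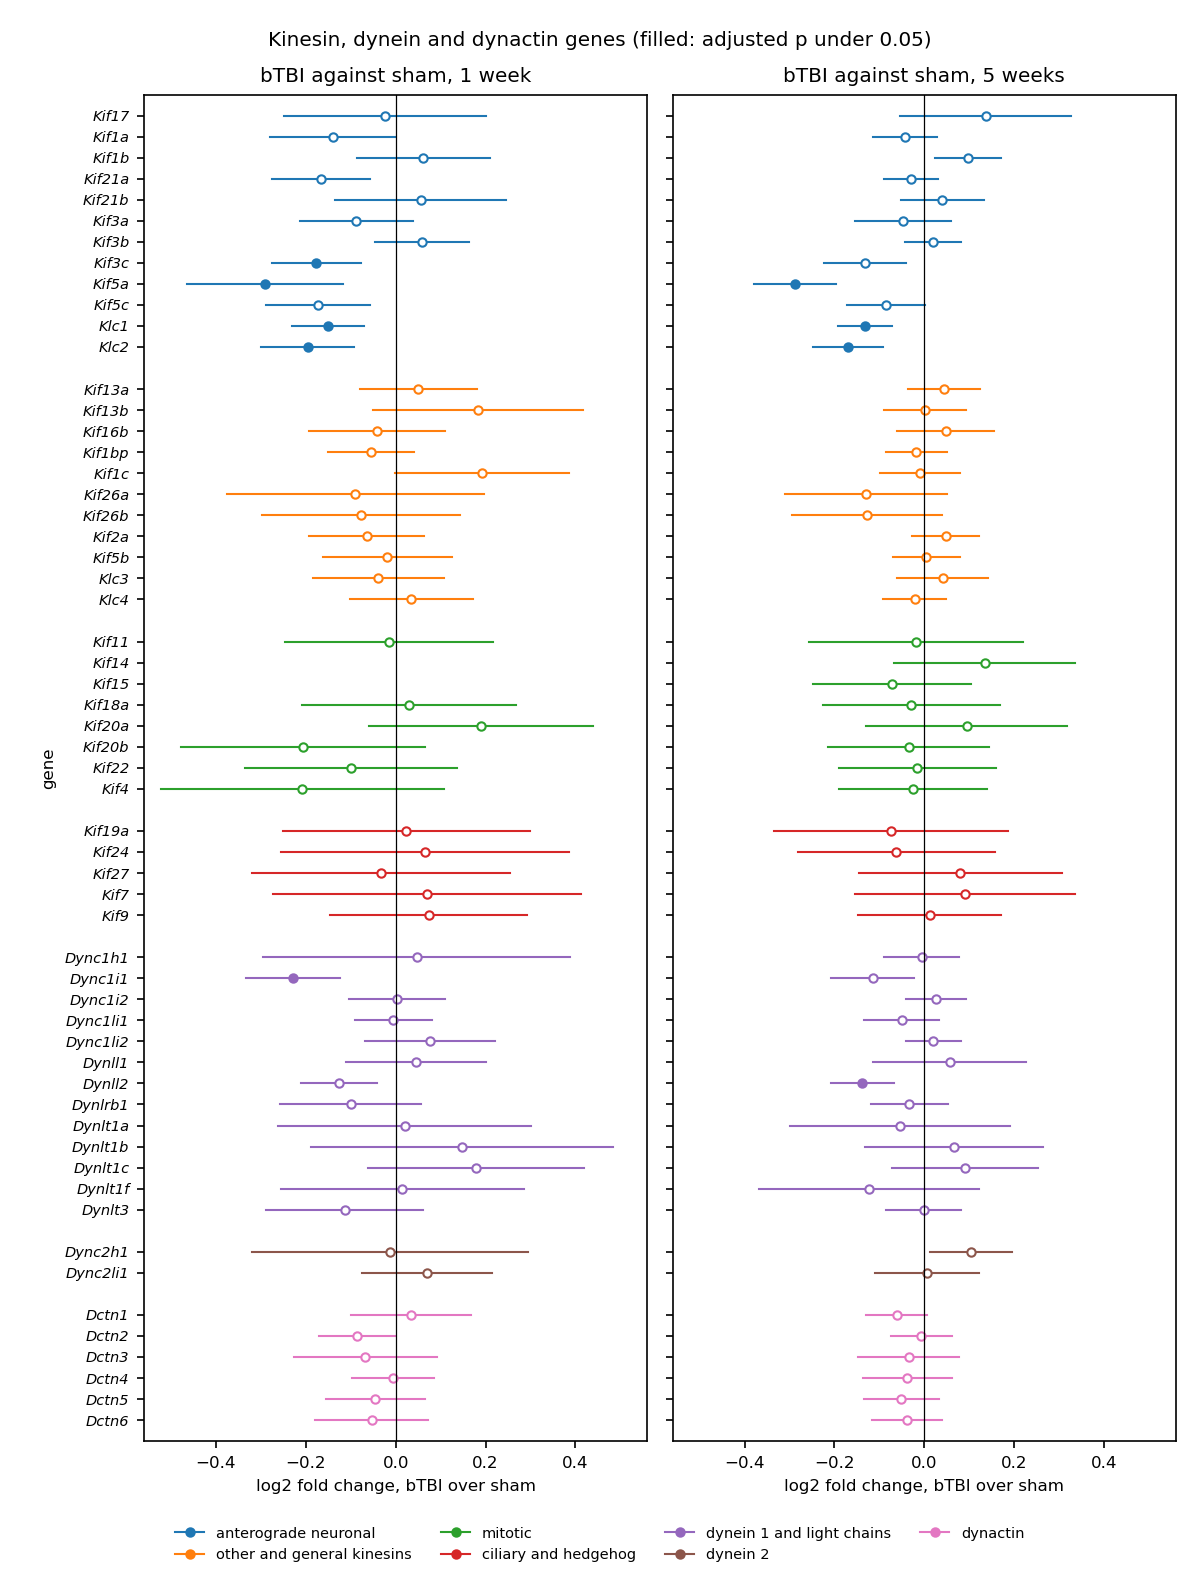
Log2 fold change of bTBI over sham with its 95% interval for every measured member, by role, at 1 week (left) and 5 weeks (right), with filled points for a limma adjusted p under 0.05. The filled points are 5 at 1 week and 4 at 5 weeks, all below 0, and Kif5a lies farthest to the left at 5 weeks.

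No member was called for a difference of the bTBI effect between the timepoints. In the fit of all 24 retinas, with the difference taken as the effect at 5 weeks minus the effect at 1 week, limma called 0 of 55 members, beside 0.104% of all genes with a lower and 0% with a higher difference, and 1 member, Kif21a, had an unadjusted p under 0.05 with a higher difference, beside 5.64% of all genes lower and 2.86% higher. The smallest adjusted p was 0.463. For Kif5a the difference was 0.00 with a 95% interval of -0.20 to 0.20, so a change of its effect smaller than that could not be seen. Kif21a, a kinesin that restrains microtubule growth, had log2 fold changes of -0.17 at 1 week (limma adjusted p = 0.0703) and -0.03 at 5 weeks.

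Genes that regulate or load the motors were counted from a list of 38, of which 37 were measured. At 1 week 2 were called lower, Kifc2 and Map7d2, and 4 were lower at the 0.05 threshold with Mapk8ip2 and Mapk8ip3, while 0 of 37 were higher, beside 0.985% of all genes called lower and 3.06% lower and 3.02% higher at the 0.05 threshold. Kifc2, a minus-end kinesin of neurons, had 28.7 ± 2.90 scaled counts in bTBI and 42.0 ± 4.01 in sham retinas at 1 week (SD, n = 6 each), a log2 fold change of -0.53 (limma adjusted p = 0.000599) that was larger than that of any member, and -0.11 at 5 weeks. Its difference between the timepoints was 0.43 (limma adjusted p = 0.0214). Map7d2, a microtubule protein that recruits kinesin-1, had 45.7 ± 2.19 in bTBI and 56.5 ± 3.28 in sham retinas at 1 week (log2 fold change -0.30, limma adjusted p = 0.00183).

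At 5 weeks 0 of the 37 were called with limma, and at the 0.05 threshold 3 were lower and 1, the dynein adaptor Hook3, was higher, beside 0.823% of all genes called lower and 1.93% lower and 0.113% higher at the 0.05 threshold. The lower ones were Mapk8ip1 (JIP1), a scaffold that binds kinesin-1 light chains, with 118 ± 3.10 scaled counts in bTBI and 133 ± 7.02 in sham retinas (limma adjusted p = 0.00709), Snph, which anchors mitochondria in axons, with 72.5 ± 2.98 in bTBI and 81.7 ± 3.73 in sham retinas (limma adjusted p = 0.0175), and Mapk8ip2 (limma adjusted p = 0.0284). Mapk8ip2, Mapk8ip3 and Hook3 were named after their values were seen. Mapk8ip2 had log2 fold changes of -0.20 at 1 week and -0.13 at 5 weeks, with no overlap of the groups at either. The median of the 37 was -0.05 at 1 week and -0.02 at 5 weeks.

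Markers of RGCs were lower in bTBI as well. Of the 10 listed markers 9 were called lower at each timepoint, each with a larger change than any member, with median log2 fold changes of -0.51 at 1 week and -0.69 at 5 weeks, and the summed level of the 10 was 901 to 1466 scaled counts in bTBI against 1635 to 1949 in sham retinas at 1 week and 566 to 803 in bTBI against 980 to 1054 in sham retinas at 5 weeks. At 1 week 6 of 6 microglia markers were higher at the 0.05 threshold, and at 5 weeks 0 of the 5 measured passed it, with a median log2 fold change of 0.07. In whole retina fewer RGCs and less RNA per RGC cannot be told apart, and the part of RGC number in the motor results was not tested.

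**Figure D4:**
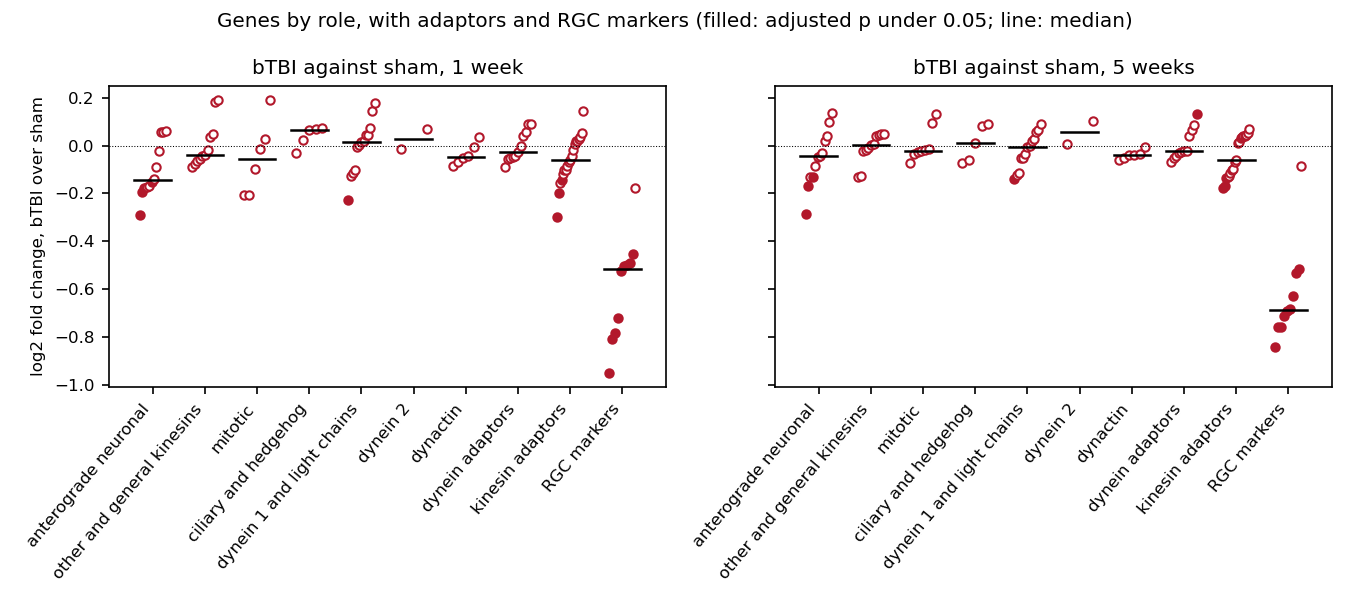
Log2 fold change of bTBI over sham at 1 week (left) and 5 weeks (right), with a point per gene for each role, for dynein and kinesin adaptors and for RGC markers, filled where the limma adjusted p is under 0.05, and a line at the median. Of the 10 RGC markers 9 lie below all motor members at both timepoints, and the anterograde neuronal genes have the lowest median of the motor roles at 1 week.

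The genes whose values followed Kif5a most closely between retinas of the same group differed with the timepoint. Likeness was taken as Pearson's r of the log2 values over the 12 retinas of a timepoint after the mean of each group was removed, so it describes spread within groups and carries no test, and retinas share differences in depth and makeup. At 5 weeks the highest were Scn1a (0.93), Gabbr2 (0.93), Eef1a2 (0.92), Rasd2 (0.91) and Hdlbp (0.91), and among members Klc1 (0.86) and Kif3a (0.80). At 1 week they were Eps15 (0.92), Tppp (0.92), Lonrf3 (0.91), Gm6977 (0.90) and Trak2 (0.90), and among members Dync1li2 (0.87) and Kif5b (0.86). For the 10 RGC markers r with Kif5a ran from 0.21 (Rbpms) to 0.65 (Slc17a6) at 1 week and from -0.35 (Isl1) to 0.89 (Rbpms) at 5 weeks.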

How the data were processed

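RNA of 24 retinas was sequenced as stranded poly(A) libraries. Per the labels and the study's methods, the deposited signal values are read counts per gene that the authors set to an effective library size (CPM scale), with low genes removed, in a table for each timepoint (STAR, edgeR and mm10 are named in the submitters' processing notes). Neither table has raw counts or comparison columns. The values of a retina were all whole multiples of its smallest step (tolerance 0.01 steps), and depth is their sum in such steps, an inferred figure. Symbols came from the GENCODE mouse annotation for 14907 of 14922 and 15902 of 15920 gene IDs.

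The log2(value + 1) of bTBI and sham retinas was compared with limma 3.58.1 in R 4.3.3 (prior trend with the mean) over all genes of a table, and the difference between timepoints over 14455 shared genes. The samples are separate mice. The fit was tested on simulated data. Levels per kb divide by the union of a gene's exons. Members were named if their adjusted p was under 0.05, if they had the 2 smallest p of a role group, or if they were on a short list of Kif5, Kif1, Kif3, Klc, Dync1h1 and Dctn1 genes. Other transport genes were named if called or among the 2 smallest p. Members, roles and lists were chosen with earlier results of these data known. Alternatives were other scalings, a minimum value of 1 in 6 retinas, a pseudocount of 0.1, other priors, a replicate block, a single fit, another threshold and leaving out retinas. The ratios within a retina were added after the data were seen. Some marker genes on the lists are not reported here.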

Additional observations from a re-analysis of the deposited data

Results flagged for a closer look

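In 114 groups of 6 retinas formed by the named members, 5 single retinas lay far from the other 5 of their group (Dixon's test), where chance gives about 1 in 20 groups. Kif1a had 736 scaled counts in sham replicate 4 at 5 weeks, against 655 to 682 in the other sham retinas. Klc1 had 461 in the same retina, against 429 to 439 in the others. Kif5c had 229 in sham replicate 3 at 5 weeks, against 203 to 208. Kif14, a kinesin of cytokinesis, had 2.24 in bTBI replicate 4 at 5 weeks, against 2.86 to 3.15 in the other bTBI retinas. Kif26a had 3.04 in bTBI replicate 4 at 1 week, against 4.81 to 6.22.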

How the results depend on the processing

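At 1 week the count of members called lower was 3 in the single fit of 24 retinas, where 365 of 14455 genes were called lower. The main fit called 0 members and 147 of 14922 genes lower. At a threshold of 0.05 the count was 5, beside 3.06% of all genes. At 5 weeks the count called lower was 0 with a prior without trend, where 54 of 15920 genes were called lower. In the single fit it was 0, beside 75 of 14455 genes, and at a threshold of 0.05 it was 4, beside 1.93% of all genes. With single retinas left out the count called lower ranged from 1 to 2, with 2 (Kif5a and Dynll2) without bTBI replicate 4. That fit called 162 of 15920 genes lower. The other counts, of members called higher or for a difference between the timepoints, were 0 in all settings run. No named member changed the sign of a called value. By the 0.05 threshold the 1 week count ranged from 1 to 8 over all settings and the 5 week count from 1 to 4. The share of all genes at 0.05 was taken in the main fit alone, so these ranges have no background. Dync1i1 at 1 week passed in 9 of 9 alternatives and without each of the 12 retinas. Of the ratios within a retina, the 10 that passed at 5 weeks did so without each of the 12 retinas, and at 1 week this held for Kif1a/Kif1b, Kif3b/Kif3c, Kif5a/Kif5b and Dync1i1/Dync1i2, while the other 4 passed in 3 to 8 of 12 omissions. Ratios whose groups did not overlap could not come to overlap when a retina was left out. The replicate numbers showed no steady pairing of the retinas. Deviations of same-numbered retinas correlated between -0.25 and 0.54 at 1 week and between -0.11 and 0.15 at 5 weeks. The highest correlation was that of replicate 1 at 1 week. With the replicate number as a block, 0 members were called lower at 1 week, beside 121 of 14922 genes, and 1 at 5 weeks, beside 133 of 15920. By the 0.05 threshold the block gave 2 and 4 members. The count-based tests laid out as alternatives were not run, since the values are scaled. The wide spread of genes under about 5 scaled counts limits what can be said of mitotic and ciliary kinesins at 1 week, and of those with such low values at 5 weeks.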
